A study of Mus musculus with 2 samples.

Results

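A set of 9 genes known as markers of kidney tubule injury were followed in 2 islet graft samples, 1 from a normoglycemic and 1 from a hyperglycemic recipient mouse. The genes were Havcr1, Lcn2, Clu, Spp1, Cd44, Krt8, Krt18, Krt19 and Sox9, and all probe sets that the platform annotation ties to exactly 1 of these symbols were taken. This gave 19 probe sets for 8 of the 9 genes, among 18193 genes named on the array. Spp1, which encodes osteopontin, was tied to no probe set in the annotation used here and was not analysed here.

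Islets of wild type C57BL/6 donors, 50 per recipient, had been placed beneath the left renal capsule on the day of isolation, and the grafts were taken after 6 hours. The normoglycemic recipient was a wild type C57BL/6 mouse, and the hyperglycemic recipient was a heterozygous Akita mouse, whose missense mutation of Ins2 makes insulin misfold in its beta cells. Akita recipients of 50 islets were male and adult at transplantation by the study's methods, which do not give the sex of a wild type recipient. The sources used here do not give the age of the wild type recipient or the number of mice behind a sample. There was 1 array per condition, so no difference could be tested, and blood glucose cannot be told apart from the Akita genotype or from differences between single grafts.

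When a tubule is injured, its surviving cells lose features of the mature nephron, spread over the bare basement membrane and divide. Havcr1 and Lcn2 are switched on in this process and their proteins pass into the urine, where they serve as injury markers. Clu and the keratins Krt8, Krt18 and Krt19 are known from stressed or regenerating tubule cells, Cd44 from cells in repair and from leukocytes, and Sox9 from tubule cells that re-enter the cell cycle. Several of these genes are also active outside the tubule. Lcn2 is a granule protein of neutrophils, Cd44 is found on macrophages, and keratins and Sox9 are found in ducts of the pancreas.

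The samples held RNA of both islet and kidney. Signals are MAS5 values on a linear scale, compared as the ratio of the hyperglycemic to the normoglycemic graft. All 12 proximal tubule genes that were listed reached the array medians of 82.9 (normoglycemic) and 91.5 (hyperglycemic), with a median log2 ratio of 0.03, whereas 9 islet endocrine genes had a median log2 ratio of 0.65. The signal at the 3' end over that at the 5' end, which grows as RNA decays, was 3.54 for Actb on the normoglycemic and 3.99 on the hyperglycemic array, and for Gapdh it was 1.30 and 1.76. On the hyperglycemic array the median signal ratio was 1.91 for 18 hybridization controls and 1.28 for 27 poly-A controls. The part of these differences in the ratios below was not tested.

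Of the 8 markers, 1 (Cd44) exceeded a 2-fold higher signal in the hyperglycemic graft and 0 a 2-fold lower one, while over all 12538 measured genes these shares were 7.56% and 5.54%. Measured genes are those for which 1 signal or both reach the median of the array, and all 8 markers had both signals there. There were 6 markers (Cd44, Lcn2, Krt19, Krt8, Krt18 and Clu) with a ratio above 1 and 2 (Havcr1 and Sox9) with a ratio below 1. Among all measured genes, 44.8% had a ratio above 1. The median log2 ratio of the markers was 0.47, beside -0.06 over all measured genes. In whole grafts, fewer cells of a type and less RNA per cell cannot be told apart. When all ratios were instead centred on the islet endocrine genes, which lowers every log2 ratio by 0.65, Clu, Krt8 and Krt18 had log2 ratios of -0.28, -0.12 and -0.25. The 9 islet genes did not share 1 direction, with log2 ratios from -0.41 to 1.81 before centring.

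**Figure D1:**
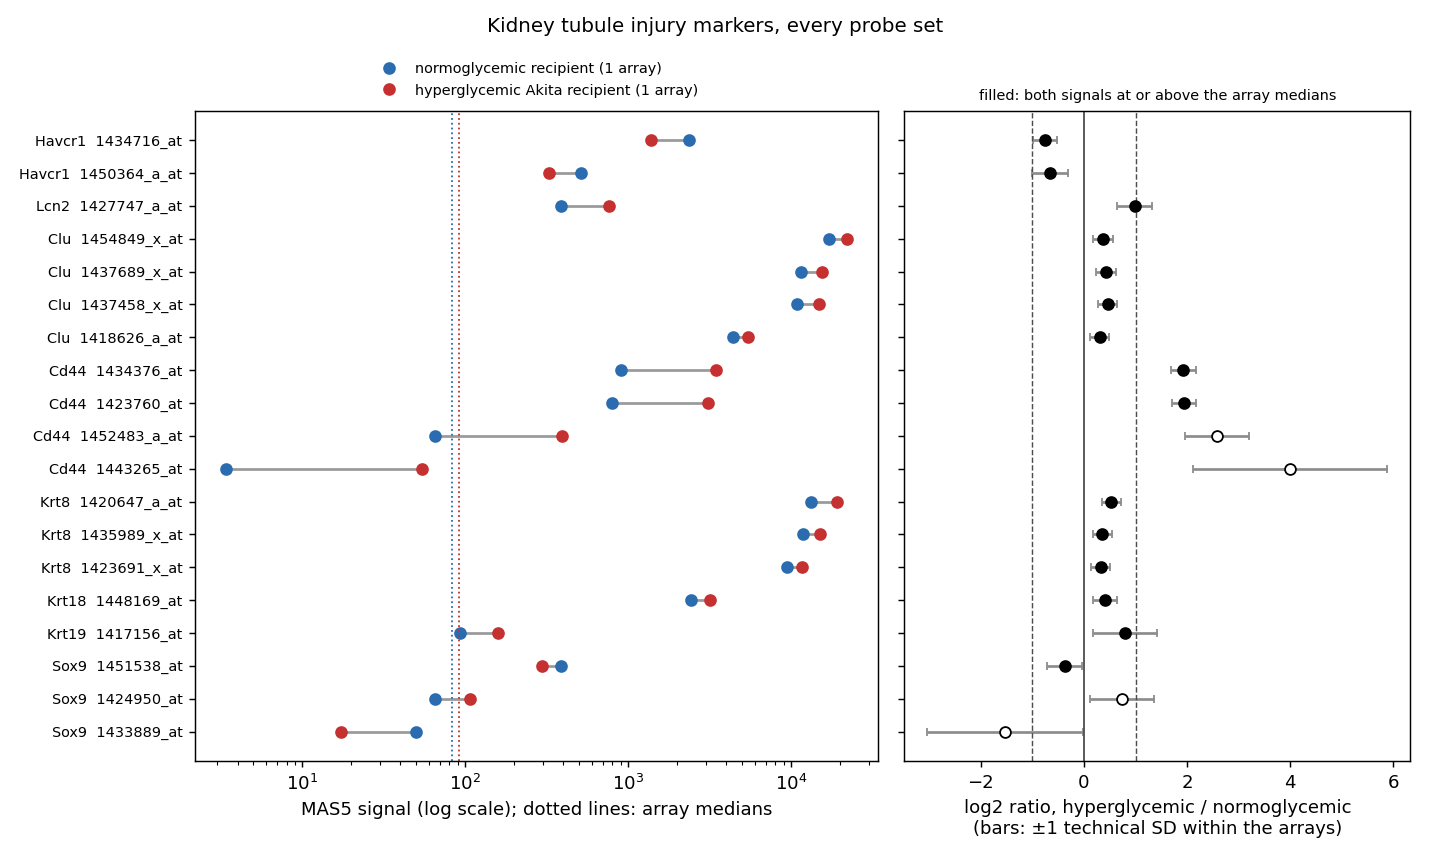
Left, MAS5 signal (log scale) of each of the 19 probe sets in the graft from the normoglycemic (blue) and the hyperglycemic (red) mouse, with dotted lines at the array medians. Right, the log2 ratio with bars of 1 technical SD, the spread between probe sets of the same gene within the arrays, and open points where a signal was below its array median. Cd44 lies beyond the dashed 2-fold line and Havcr1 to the left of 0; centred on islet genes, Clu, Krt8 and Krt18 would lie to the left of 0.

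Because there was no replicate, a technical spread within the arrays was used to judge the size of ratios. It is the SD of the log2 ratio between probe sets of the same gene, estimated from pairs of them in classes of signal. It holds no variation between mice and no difference that the probe sets of an array share, such as one of labelling or hybridization. Each pair was classed by the lower of its mean signals, and each marker probe set by its own mean signal. The technical SD was 0.62 on the log2 scale at signals of 64 to 256 (8113 pairs of probe sets), 0.35 at 256 to 1024, 0.24 at 1024 to 4096 and 0.19 above 4096.

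For the 2 markers with the highest ratios, Cd44 and Lcn2, and for the partner keratins Krt8 and Krt18, the 250 bases before the annotated start of the gene are shown. They are RefSeq sequences of GRCm38.p6, written 5' to 3' on the strand of the gene. Cd44 lies on the minus strand at chr2:102901666-102901915, Lcn2 on the minus strand at chr2:32387740-32387989, Krt8 on the minus strand at chr15:102004343-102004592 and Krt18 on the plus strand at chr15:102027966-102028215. Capitals mark matches, on either strand, to TATAAA, to the GC box GGGCGG, to the AP-1 motif TGANTCA or to the NF-kB consensus.

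Cd44: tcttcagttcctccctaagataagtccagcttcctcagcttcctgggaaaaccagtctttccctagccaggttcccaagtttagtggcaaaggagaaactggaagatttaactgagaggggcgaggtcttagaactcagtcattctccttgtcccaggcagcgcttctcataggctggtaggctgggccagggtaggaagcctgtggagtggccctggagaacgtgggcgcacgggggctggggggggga

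Lcn2: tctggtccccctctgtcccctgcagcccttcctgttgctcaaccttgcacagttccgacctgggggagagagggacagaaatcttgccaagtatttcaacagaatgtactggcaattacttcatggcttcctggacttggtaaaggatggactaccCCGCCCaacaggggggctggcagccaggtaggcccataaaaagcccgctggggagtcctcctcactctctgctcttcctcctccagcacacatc

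Krt8: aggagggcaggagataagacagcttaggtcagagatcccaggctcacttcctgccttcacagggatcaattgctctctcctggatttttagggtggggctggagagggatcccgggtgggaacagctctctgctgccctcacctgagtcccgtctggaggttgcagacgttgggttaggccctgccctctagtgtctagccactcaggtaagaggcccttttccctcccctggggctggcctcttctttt

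Krt18: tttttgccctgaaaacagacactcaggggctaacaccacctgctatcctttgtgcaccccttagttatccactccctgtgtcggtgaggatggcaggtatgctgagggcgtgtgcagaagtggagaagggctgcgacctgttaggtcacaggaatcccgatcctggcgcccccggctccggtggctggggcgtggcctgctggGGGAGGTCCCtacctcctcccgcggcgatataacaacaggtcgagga

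Lcn2 held a GC box beginning at position -94 from the start, a motif found in 32.7% of 32851 such promoters. Krt18 held a match to the NF-kB consensus at -47, found in 7.25% of promoters. None of the 4 motifs was in these windows of Cd44 and Krt8. TATAAA was found in 12.4% and TGANTCA in 6.75% of all promoters and in none of the 4 shown. The matches did not overlap each other. They describe the letters only, and no binding was measured in this study. Clu, Krt19 and Sox9 were not in the promoter table. Havcr1 was listed there with 3 starts, and the 250 bases before each held none of these motifs.

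Of the secreted and shed markers, Havcr1 had a ratio below 1, and Lcn2 and Clu had ratios above 1 on the deposited scale. Havcr1 encodes KIM-1, a membrane protein that lets tubule cells engulf dead cells by binding phosphatidylserine. On the brighter of its probe sets, 1434716_at, it had a signal of 2352 in the normoglycemic and 1388 in the hyperglycemic graft. The other, 1450364_a_at, gave 514 and 326. Both probe sets were thus lower in the hyperglycemic graft, 1.69-fold and 1.58-fold. The log2 ratios were -0.76 and -0.66 with technical SDs of 0.24 and 0.35, and 9.52% of measured genes had a lower ratio than the brighter probe set. The log2 ratios of the 12 proximal tubule genes, the segment where Havcr1 is known to be induced, ranged from -0.57 (Miox) to 0.52 (Kap). Both Havcr1 probe sets lay below all 12, but they lay below Miox by less than their technical SDs. Other segments had median log2 ratios of -0.81 (collecting duct) and -0.59 (thick ascending limb and distal tubule). Under the scalings and floors that were tried, the log2 ratio of Havcr1 ran from -1.41 to -0.71 on the brighter probe set. It ran from -1.31 to -0.35 on the other.

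Lcn2 encodes lipocalin-2, which withholds iron from bacteria by binding their siderophores. Its only probe set had a signal of 385 in the normoglycemic and 760.1 in the hyperglycemic graft, 1.98-fold higher. The log2 ratio of 0.98 (technical SD 0.35) lay just under the 2-fold limit, and 7.69% of measured genes had a higher ratio. With quantile normalization or loess correction Lcn2 passed the limit. The log2 ratio of Lcn2 exceeded that of Havcr1 by 1.74, with a technical SD of the difference of 0.42. Neutrophil genes were higher as well. Among 6 measured genes of neutrophils, 5 passed the 2-fold limit upward with a median log2 ratio of 1.91. With low signals raised to the array medians the count was 4 and the median 1.41, and with a floor at the 75th percentile the count was 2. Ltf, lactoferrin, chosen with its values known, had 5.21 and 92.8, at least 1.12-fold higher. The list includes S100a9 (2536 and 10930) and S100a8 (1558 and 5481), subunits of calprotectin, and the summed signal of the 10 listed genes with a probe set was 4615 in the normoglycemic and 17613 in the hyperglycemic graft. Elane, Ngp and Camp, granule genes of immature neutrophils chosen with their values known, did not reach the array median in either graft, with signals in the hyperglycemic one of 18.3, 67.8 and 73.3. Cxcr2 of the same list, also chosen with its values known, did not reach it either. Its signal was 55.5 in the normoglycemic and 43.8 in the hyperglycemic graft. No listed gene was at 0. The part of neutrophil RNA in the Lcn2 signal was not tested.

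Lrp2 and Cubn, endocytic receptors of the proximal tubule that take up filtered proteins, among them lipocalin-2 in the case of Lrp2, had signals of 12990.2 and 13632 (Lrp2) and of 5079 and 5451 (Cubn) in the normoglycemic and the hyperglycemic graft. Slc22a17, a receptor for lipocalin-2, had 461 and 384. Of the 5 genes listed as its receptors and partners, 1 was over 2-fold higher and 0 over 2-fold lower. This 1 gene was Mmp8, a collagenase of neutrophils, with 107 and 216, and it was within 2-fold after quantile normalization or loess correction or with the array median added. In the list of TIM family and other phosphatidylserine receptors, 2 of 8 measured genes passed 2-fold upward and 0 downward, with a median log2 ratio of -0.12. Both were TIM genes of leukocytes, named after their values were seen. Timd4 had signals of 4.95 and 208, at least 2.51-fold higher, and Havcr2 37.7 and 128, at least 1.55-fold. With low signals raised to the array medians the count was therefore 1. Gas6, a bridge between phosphatidylserine and its receptors, had 7898 and 3949, at the limit itself. The downward count was 1 with median centring and 2 on the median of all probe sets of each gene. Timd2, a close relative of Havcr1 in the mouse, had 3158 and 2484.

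Clu encodes clusterin, a secreted chaperone that binds unfolded proteins and restrains the terminal complement complex. Signals of its 4 probe sets ran from 4418 to 17192 in the normoglycemic and from 5468 to 22179 in the hyperglycemic graft. All 4 were higher in the hyperglycemic graft, by 1.24-fold to 1.37-fold, with log2 ratios from 0.31 to 0.46 and a technical SD of 0.19, though the brightest was -0.28 when centred on islet genes. Of the 4, 3 carry the suffix _x_at, given to probe sets that can bind further transcripts. Of 5 measured genes listed as clusterin partners, 3 were over 2-fold higher and 0 lower, with a median log2 ratio of 1.54. With low signals raised to the array medians the count was 1 and the median 0.30. C8a and C9, complement genes of which C9 was chosen with its values known, rested on signals below the median in the normoglycemic graft. The third was Apoe, the apolipoprotein of macrophages and other cells, at 2149 and 6755.

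**Figure D2:**
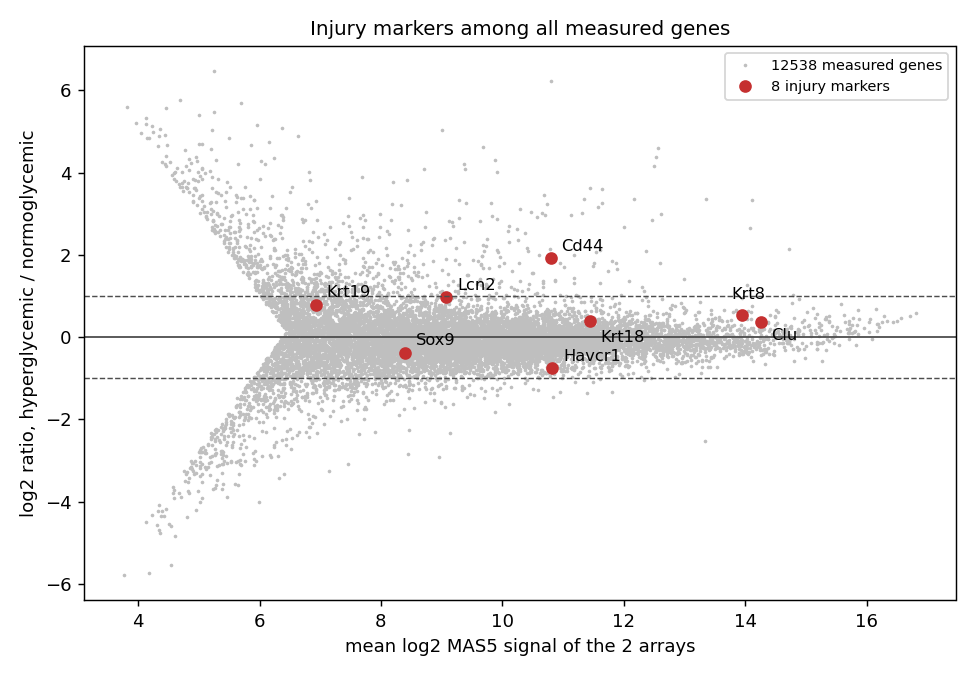
Log2 ratio of hyperglycemic over normoglycemic (y axis) against the mean log2 MAS5 signal of both arrays (x axis) for 12538 measured genes (grey) and the 8 injury markers (red), on the brightest probe set of each gene, with dashed lines at 2-fold. Cd44 (1.93) lies above the line and Lcn2 (0.98) just under it, and Havcr1 (-0.76) lies below the line of no difference.

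Cd44, a receptor for hyaluronan on the cell surface, had the highest ratio of the 8 markers. The probe set 1434376_at gave signals of 910.1 in the normoglycemic and 3460.1 in the hyperglycemic graft, and 1423760_at gave 799 and 3074. These were 3.80-fold and 3.85-fold higher in the hyperglycemic graft, log2 ratios of 1.93 and 1.94 with a technical SD of 0.24. On 1452483_a_at the signals were 65.6, below the array median, and 392, at least 4.72-fold higher. The last probe set, 1443265_at, was below the array medians in both grafts, with 3.41 and 54.5, and no fold is given for it. The 3 probe sets that reached an array median were thus higher in the hyperglycemic graft, and 3.14% of measured genes had a higher ratio than the brightest. Under the scalings and floors the log2 ratio ran from 1.28 to 1.98 on 1434376_at and from 1.29 to 1.99 on 1423760_at. On 1452483_a_at it was 0 with signals raised to the 75th percentile, where both lie at the floor.

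Macrophage genes differed in the same direction and more widely. In the list of macrophage and monocyte genes, 9 of 10 measured passed the limit upward and 0 downward (median log2 ratio 2.69), and the summed signal of the 12 listed genes was 10489 in the normoglycemic and 84608 in the hyperglycemic graft. Itgam and Mrc1, named after their values were seen, had a normoglycemic signal below the array median. As bounds they were at least 7.08-fold and at least 3.88-fold higher. Lyz2, which encodes lysozyme, had 5539 and 55987. All 10 genes listed from macrophages of the peritoneal cavity passed the 2-fold limit upward (median log2 ratio 3.71), with sums of 7349 and 84984. Of these, Timd4, named after its values were seen, had a normoglycemic signal below the array median and was at least 2.51-fold higher. The lists were chosen with earlier results of these data known, so these counts may partly reflect that choice. No gene of either list was at 0. Cd163 and Trem2, chosen with their values known, did not reach the array median in either graft, with 78.4 and 63.3 in the hyperglycemic one. The part of macrophage RNA in the Cd44 signal was not tested.

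Genes that make or bind hyaluronan or act on Cd44 differed less. Of 10 measured genes of this list, 2 were over 2-fold higher and 0 lower, with a median log2 ratio of 0.25. Srgn, a proteoglycan core protein of leukocyte granules that binds Cd44, had signals of 6916 and 43353 (6.27-fold). The other was Vcan, versican, named after its values were seen, with 62.0 and 298, at least 3.59-fold higher. Ezr and Rdx, which link Cd44 to actin, had 13722 and 14601 (Ezr) and 4577 and 5392 (Rdx). Has2 and Has3, hyaluronan synthases also named after the fact, were below the array medians in both grafts, and Has1 was close to them, at 88.0 and 98.1. Of 8 measured receptors of osteopontin, 1 was over 2-fold higher and 1 over 2-fold lower, Itgb3 (17.6 and 189) and Itga8 (138 and 40.8), both named after their values were seen and both with 1 signal below the array median. As bounds they were at least 2.28-fold higher and at least 1.51-fold lower. Itgav, the integrin subunit alpha V, had 11882 and 18413, and Itgb1 1009 and 1052.

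Krt8 and Krt18 had slightly higher signals in the hyperglycemic graft, except after centring on the islet genes, which turned the direction of all their probe sets. They pair with each other to build the filaments of simple epithelia. Krt8 had signals of 13179 and 19044 on 1420647_a_at, 11759.5 and 15053 on 1435989_x_at and 9382 and 11734 on 1423691_x_at. Its ratios were 1.44, 1.28 and 1.25, and the last 2 probe sets can bind further transcripts by their suffix. Krt18 had signals of 2419 and 3199 on its only probe set, a ratio of 1.32. The partners thus differed between the grafts in the same direction, with log2 ratios of 0.53 (technical SD 0.19) for the brightest probe set of Krt8 and 0.40 (0.24) for Krt18. The difference of 0.13 between them was less than its technical SD of 0.30.

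Krt19, the smallest keratin and a marker of ducts, had low signals in both grafts, 92.4 in the normoglycemic and 159.8 in the hyperglycemic one. Its log2 ratio of 0.79 had a technical SD of 0.62, and it became 0 when signals were raised to a floor at the 75th percentile, because both signals then lie at that floor. Among 14 other keratins 5 were measured, and 0 of these differed by over 2-fold. Krt20, a keratin that injured tubule cells are known to express, had 3148 and 2594, and Krt7, a keratin of collecting ducts and of pancreatic ducts, 1921 and 1209. Krt80 had 145 and 211, and Krt10 777 and 753. Of the 5 measured keratins, 2 had a ratio above 1 and 3 below 1, so they shared no direction. Among 11 measured genes of cell junctions and keratin linkers, 1 was over 2-fold higher (Ppl, 89.4 and 219) and 1 over 2-fold lower (Evpl, 471.5 and 235), but neither was past the limit with the array median added, and Evpl was within 2-fold after loess correction. Both encode linkers of keratin filaments to desmosomes. Cdh1, which encodes E-cadherin, had 3471 and 4446, and Cdh16, a cadherin of the kidney, 23276 and 18126.

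Values of the cell types that the grafts could hold differed in direction. The summed signal of the 9 islet endocrine genes was 156115 in the normoglycemic and 225371 in the hyperglycemic graft, with 3 genes over 2-fold higher (Ppy, Sst and Gcg) and 0 lower. A ratio below 1 was found for 3 of the 9, Slc2a2 (0.88) and, named after their values were seen, Chga (0.82) and Pdx1 (0.75). Ins2 had a ratio of 1.28. Collecting duct genes had a median log2 ratio of -0.81 over 8 measured genes, and the sum over 9 was 9629.5 and 6098. Of 5 measured pancreatic duct genes other than the markers, the median log2 ratio was -0.67. Of 8 acinar genes, 7 were below the array medians in both grafts. The exception was Cela1, with 18162 and 14624. Mesothelium, which covers the kidney capsule, had 4 of 10 listed genes measured and 0 over 2-fold in either direction, and its defining genes Msln and Upk3b, chosen with their values known, reached the array median in neither graft. Median log2 ratios were -0.59 for thick ascending limb and distal tubule, -0.49 for podocytes and parietal epithelium, -0.69 for fibroblasts and -0.78 for endothelium. The part of any of these cell types in the keratin signals was not tested.

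Sox9, a transcription factor of progenitor and duct cells and of tubule cells in repair, gave no common direction over its 3 probe sets. The brightest, 1451538_at, had signals of 385 in the normoglycemic and 296 in the hyperglycemic graft. On 1424950_at the signals were 64.9, below the array median, and 108, and on 1433889_at neither signal reached the array median. The first was lower in the hyperglycemic graft (log2 ratio -0.38, technical SD 0.35), the second at least 1.30-fold higher, and the third allows no fold. None of the 8 other measured SOX genes differed by over 2-fold. Sox4, a factor of embryonic and injured epithelium, had 3893 and 3118.

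Injury genes outside the 9 markers were mostly within 2-fold, as were 10895 of all 12538 measured genes. In the list of other urinary and tissue biomarkers, 2 of 12 measured genes were over 2-fold higher and 0 lower, with a median log2 ratio of -0.01. Vim, vimentin of mesenchymal cells, leukocytes and dedifferentiated tubule cells, had signals of 1983 and 4935, and was over 2-fold higher on all 3 of its probe sets. Timp2, an inhibitor of metalloproteinases, had 424 and 3654 on its brightest probe set (8.61-fold). Its other probe sets did not share this size, since of the other 3 with both signals at the medians the lowest gave 164 and 131 and the highest 240.2 and 486. On the median of all probe sets of each gene, 1 gene of this list was over 2-fold higher. Igfbp7, which is combined with Timp2 in urine tests of kidney stress, had 50765 and 44710, and Umod, the uromodulin of the thick ascending limb, 21900.5 and 14747.

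Of 27 measured stress and repair genes of injured tubule, 8 were over 2-fold higher and 0 lower, with a median log2 ratio of 0.51, and 23 had a ratio above 1. Centring on the islet genes, which lowers every log2 ratio by 0.65, would take this median below 0. It was applied to the markers and not to this list. Over all measured genes, 7.56% were over 2-fold higher, 5.54% were over 2-fold lower and 44.8% had a ratio above 1. The 3 stress and repair genes with the largest ratios were Timp1, an inhibitor of metalloproteinases, at 161 and 550, Anxa1, a mediator that restrains inflammation, at 841 and 2491, and S100a6, a calcium-binding protein, at 1017 and 2616. The other 5 were Cdkn1a, Fos, Lif, Nupr1 and Plaur, named after their values were seen, with ratios from 2.03 (Lif) to 2.49 (Cdkn1a). The 3 genes with the highest signals had ratios from 1.03 to 1.58. Tnfrsf12a, the receptor of TWEAK, had 7129 and 7370.5, Klf6, an early transcription factor, 5024 and 5994, and S100a10 10268 and 16201. Many of the genes in this list are also active in leukocytes, and the part of leukocyte RNA in their signals was not tested.

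**Figure D3:**
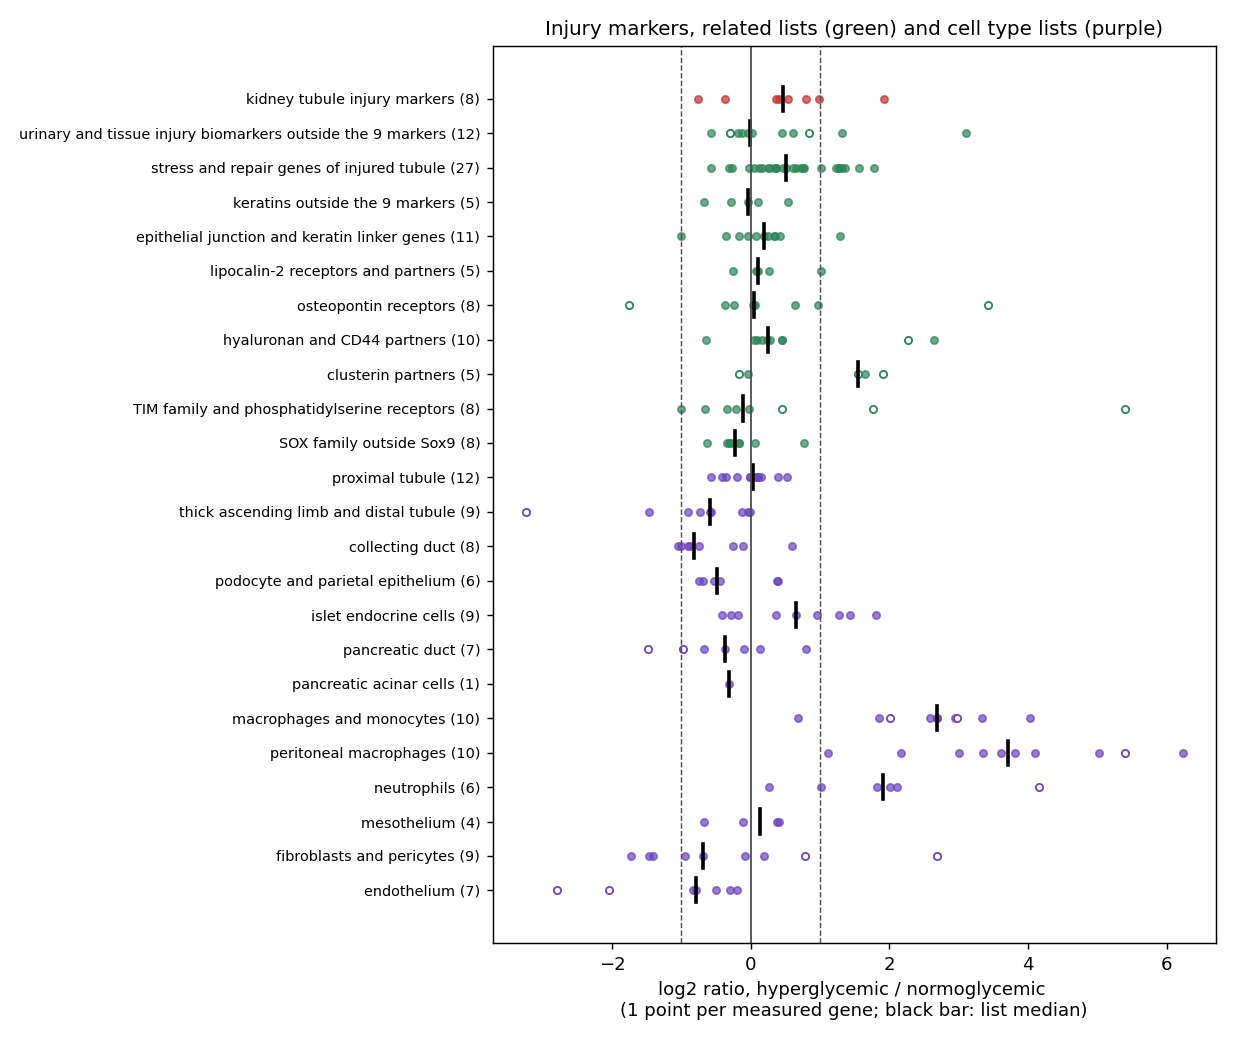
Log2 ratio of hyperglycemic over normoglycemic for each measured gene (points) of the injury markers (red), 10 related lists (green) and 13 cell type lists (purple), with the number of measured genes in parentheses, black bars at the list medians, open points where a signal was below its array median and dashed lines at 2-fold. The median of the markers (0.47) lies between those of proximal tubule (0.03) and islet (0.65) genes, and far to the left of macrophage genes (2.69).

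**Figure D4:**
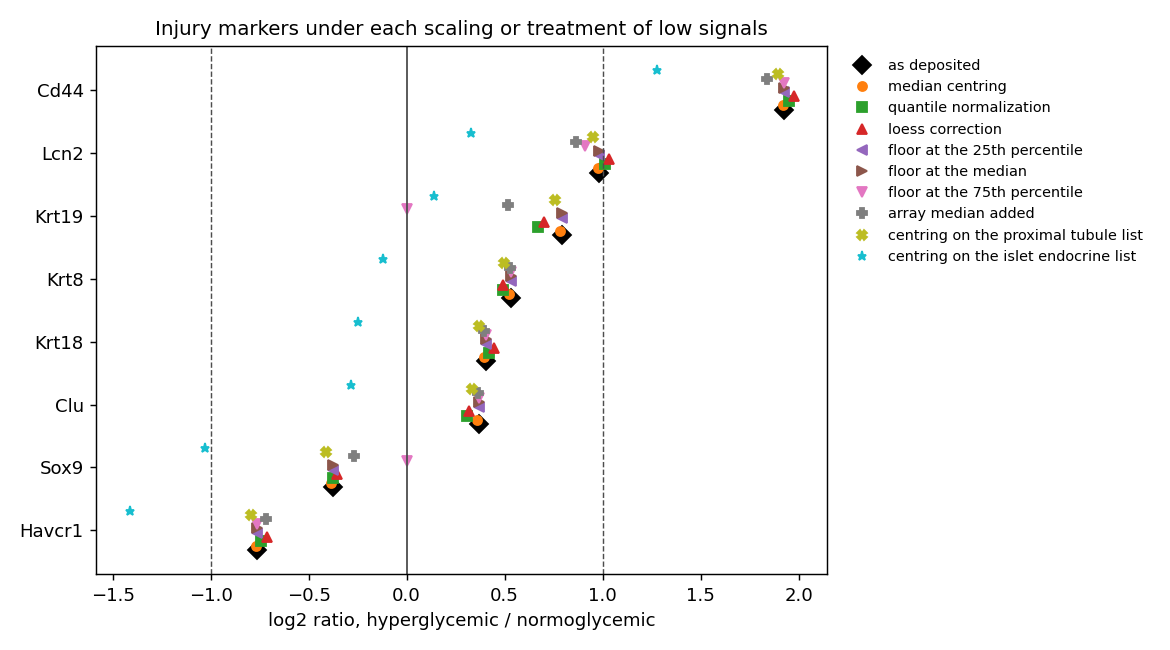
Log2 ratio of hyperglycemic over normoglycemic of each marker on its brightest probe set as deposited (black) and under each scaling or treatment of low signals. Cd44 stays above the 2-fold line under all of them and Havcr1 below 0, while Krt8, Krt18 and Clu are below 0 when centred on islet genes and Krt19 and Sox9 are at 0 with signals raised to the 75th percentile.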

How the data were processed

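Total RNA of 1 graft sample per condition, 100 ng, was labelled with biotin and hybridized to 1 MOE430 2.0 GeneChip array each. The authors deposited MAS5 signal intensities on a linear scale. The sources used here do not give the MAS5 version or scaling, and expression was analysed by the authors in the Subio Platform. The number of arrays limits the precision.

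Of 45037 probe sets other than 64 controls, 34945 carried 1 symbol, 932 several and 9160 none in the platform annotation. Of the first, 34741 were found in RefSeq (GRCm38.p6), with 0 symbols updated. The table names no genome build, and coordinates are given for RefSeq promoters only. Ratios were taken without further scaling, on the probe set of each gene with the highest mean log2 signal. No test was made. A signal below its array median was called low, and a fold is then given as a bound against that median.

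The markers and the 23 gene lists were chosen with earlier results of these data known. Named were all probe sets of the markers and, in each other list, up to 3 genes with the highest signals and up to 3 with the largest ratios among those with both signals at the medians. Exceptions are stated. Alternatives, 13 planned and 2 chosen after seeing the data, covered scaling (loess span 0.3, 3 iterations), floors, fold limits and the choice of probe sets. Scripts used Python 3.11.15, numpy 2.4.6, pandas 2.3.3, statsmodels 0.14.6 and matplotlib 3.10.9, and were tested on simulated data.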

Additional observations from a re-analysis of the deposited data

How the results depend on the processing

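With 1 array per condition, leaving out a replicate was not possible and every value below is a description. The count of markers over the limit was 1 higher and 0 lower as reported. It was 2 higher (Cd44 and Lcn2) with quantile normalization and 2 higher (the same genes) with loess correction. With a limit of 1.5-fold it was 3 higher (Cd44, Krt19 and Lcn2) and 1 lower (Havcr1), and with a limit of 5-fold 0 higher. Centred on the islet endocrine genes, 2 were lower (Havcr1 and Sox9) and the median log2 ratio of the markers was -0.18, beside -0.71 over all measured genes, a shift that follows from the centring itself. The other 36 of 43 values of these counts and of the median moved by no more than 1.5 times (counts) or the technical SD (median). Of 171 log2 ratios of single probe sets, 28 moved by more than the technical SD, and 0 that were over 2-fold changed direction. Only the Cd44 probe sets and 1433889_at of Sox9 were over 2-fold and could enter that last count. The turns of Clu, Krt8 and Krt18 on centring by islet genes lie outside it. Centring on the islet genes, the largest shift of any centring, moves log2 ratios by 0.65. This is too little to turn a ratio over 2-fold, so for every centring the 0 was fixed beforehand. Of 851 values of the other lists, 118 moved and 733 did not. Signals below the array median, as on 1443265_at of Cd44 and 1433889_at of Sox9, limit what can be read from those probe sets.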
